A study of Mus musculus with 8 samples.

Results

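Gas5, Snhg1, Snhg3, Snhg4, Snhg5, Snhg6, Snhg8, Snhg12 and Snhg15 are spliced non-coding genes that carry small nucleolar RNAs (snoRNAs) and whose spliced transcripts are known substrates of RNA decay. They were taken by name, and all 9 of 9 were found among the 55291 genes counted in each library and passed the filter on low counts. The libraries came from mouse embryonic stem cells, labelled E14, in which either DHX35 (DHX35-dTAG cells) or GPATCH1 (GPATCH1-dTAG cells) carries the FKBP12 F36V degron. Each line received DMSO, the solvent, or 200 nM dTAG-13, a compound that directs the tagged protein to degradation, for 4 h. There were 2 libraries in each of the 4 groups, 8 in all. Both lines carry a tag and were grown from picked single colonies, the labels do not say which clones were sequenced, and no untagged line treated with dTAG-13 was analysed here. Nothing in the labels says that the replicates came from separate cultures, so the p-values measure the spread between these libraries, which may be technical.

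A snoRNA host gene makes its product from what other genes discard. Its introns contain the snoRNAs, which are trimmed from the excised introns and then guide the chemical modification of ribosomal and other RNAs, box C/D snoRNAs by 2'-O-methylation and box H/ACA snoRNAs by pseudouridylation. The exons that remain are joined, exported and read by ribosomes over short reading frames, and nonsense-mediated decay then degrades them. The level of a spliced host transcript therefore reflects both its synthesis and its decay. DHX35 is an RNA helicase and GPATCH1 a G-patch protein that activates it. The study places both in the rejection of spliceosomes that hold a faulty 5' splice site. From RNA sequencing of these mouse cells, it also reports an enrichment of splicing events with weaker 5' splice site motifs after knockdown. Gene counts do not measure such events. Whether the host transcripts shift within hours of losing either protein is the question put to the gene counts here.

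GENCODE M21 (GRCm38) has a gene entry for 8 of the 9 hosts, and Snhg4 is given here without a position. The entries hold 30 snoRNA genes on the host's strand, 10 in Gas5, 8 in Snhg1, 5 in Snhg12, 2 each in Snhg3 and Snhg5, and 1 each in Snhg6, Snhg8 and Snhg15. The following 5 are shown because they carry the points made on the snoRNA counts further on, with the C box (TGATGA) and D box (CTGA) of box C/D snoRNAs or the ACA box of H/ACA snoRNAs in capitals. Snora73a and Snora73b lie in Snhg3, Snord50a and Snord50b in Snhg5, and Snord87 in Snhg6.
Snora73a, chr4:132352775-132352979, - strand: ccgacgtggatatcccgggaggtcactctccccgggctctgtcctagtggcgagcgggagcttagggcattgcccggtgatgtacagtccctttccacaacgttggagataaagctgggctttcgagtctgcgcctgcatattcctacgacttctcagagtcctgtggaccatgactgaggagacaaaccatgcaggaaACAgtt
Snora73b, chr4:132352322-132352526, - strand: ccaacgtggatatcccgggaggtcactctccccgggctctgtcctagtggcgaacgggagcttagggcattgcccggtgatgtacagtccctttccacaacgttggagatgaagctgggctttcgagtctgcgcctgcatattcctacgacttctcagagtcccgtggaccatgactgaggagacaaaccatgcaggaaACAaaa
Snord50a, chr9:88521529-88521600, - strand: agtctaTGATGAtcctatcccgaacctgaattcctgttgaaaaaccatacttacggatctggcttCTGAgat
Snord50b, chr9:88521797-88521868, - strand: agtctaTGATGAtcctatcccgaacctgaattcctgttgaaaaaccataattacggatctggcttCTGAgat
Snord87, chr1:9942463-9942549, - strand: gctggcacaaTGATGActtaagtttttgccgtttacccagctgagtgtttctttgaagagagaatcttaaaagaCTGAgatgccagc
Snora73a and Snora73b differ at 7 of 205 bases (96.6% identity), and Snord50a and Snord50b at 1 of 72 (98.6%). Reads from such copies can be split or lost in counting, so counts of either copy are uncertain.

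The gene models differ in how much intron they count as exon. Gas5 has 25 annotated transcripts, of which 20 are typed as retained intron, and 77.4% of its 3760 exonic bases belong to those models alone. Snhg1 has 18 transcripts with 14 of that type (70.9% of 2969 bases), Snhg5 has 6 with 3 (39.6% of 1730 bases) and Snhg8 has 3 with 1 (29.2% of 853 bases). Snhg3, Snhg6, Snhg12 and Snhg15 have none of that type. The exons of the Snhg12 models nevertheless cover together all 2402 bases of its gene span, with its 5 snoRNA genes inside them. If the authors' counting used such models, reads of unspliced Gas5, Snhg1 and Snhg12 RNA would be included in their gene counts. The annotation the authors used is not given in the sources used here.

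The 5' splice sites of the hosts bear on the study's question, since DHX35 and GPATCH1 are placed at faulty sites. Of 46 annotated donor sites in the hosts, 35 could be read to the sixth intron base, because another transcript of the same gene covers that stretch as exon. The remaining 11 were not read. Among those 35 sites, A was the fourth intron base in 85.7%, G was the fifth in 82.9% and T was the sixth in 65.7%, compared with 62.1%, 72.2% and 43.4% of the 35276 sites of all genes that could be read in the same way (14.0% of 252454). All of these bases were present in 15 of the 35 sites (42.9%, against 24.2% of all readable sites), 2 of them in 17 and 1 of them in 3, and no host site lacked every one (10.8% of all readable sites did). Both sets hold only introns that some annotated transcript retains in part, so they do not stand for all introns. They are also unlike each other, since 76.1% of the host sites could be read, against 14.0% of all. Gas5 and Snhg1 gave 11 and 10 of the 35 host sites. The 3 sites with 1 matching base are printed first and then 3 with the full match, with the last 3 exon bases in lower case and the first 6 intron bases in capitals.
Gas5, last exon base 161035194 of chr1, + strand: cagGTATGC
Snhg1, last exon base 8725523 of chr19, + strand: cagGTATAT
Snhg1, last exon base 8725924 of chr19, + strand: aagGTGAAC
Gas5, last exon base 161036852 of chr1, + strand: aagGTAAGT
Snhg6, last exon base 9942323 of chr1, - strand: tggGTAAGT
Snhg15, last exon base 6528306 of chr11, - strand: ctgGTAAGT
The sites with the fewest matching bases lie in Gas5 and Snhg1, the hosts with the most introns. Their gene counts cannot show how those single introns were spliced.

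The RefSeq promoter table (GRCm38.p6) holds 8 start sites for 7 of the hosts, with 2 for Gas5, and Snhg4 and Snhg6 were not matched. Hosts of this class are known for a run of pyrimidines at the transcription start, the 5' TOP motif, which couples their translation to growth signals. The longest run of C or T touching the 10 bases on either side of the start was taken. It was at least 7 bases long in 4 of the 8 windows, against 19.7% of 32851 promoters, and at least 5 bases long in 6 of the 8, against 44.9%. Of the 4 longer runs, those of Snhg8 and Snhg12 span the start. Those of Snhg1 and Snhg5 begin after it, at bases 5 and 8 of the transcript. The letters TATAAA or TATATA, searched on both strands from 45 to 16 bases before the start, were present in 5 of the 8 windows and in 3.5% of all promoters. Those 5 are printed from 50 bases before the start to 30 after, with the TATA letters first and the pyrimidine run second in capitals. In these windows the TATA letters and the run do not overlap.
Gas5, chr1:161035116-161035195, + strand: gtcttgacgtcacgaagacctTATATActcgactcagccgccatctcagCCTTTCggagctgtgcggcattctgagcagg
Snhg1, chr19:8723437-8723516, + strand: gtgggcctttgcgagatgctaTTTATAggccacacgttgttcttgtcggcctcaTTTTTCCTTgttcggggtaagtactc
Snhg5, chr9:88522868-88522947, - strand: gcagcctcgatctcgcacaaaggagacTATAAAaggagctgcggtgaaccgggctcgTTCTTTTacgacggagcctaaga
Snhg8, chr3:123508307-123508386, - strand: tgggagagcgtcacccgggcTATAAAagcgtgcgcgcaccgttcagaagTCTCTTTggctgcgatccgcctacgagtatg
Snhg12, chr4:132308628-132308707, + strand: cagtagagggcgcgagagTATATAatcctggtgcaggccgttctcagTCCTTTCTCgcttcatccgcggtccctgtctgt
A match of letters is a description of these windows and shows no bound factor.

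Library totals lay between 12014203 and 14994173 counts, and the host counts behind each value ran from 133 (Snhg8) to 2315 (Gas5). DHX35-dTAG DMSO replicate 1 stood apart, with a mean correlation of 0.979 to the rest, where each of the remaining libraries reached 0.991 or 0.992. Small nuclear and nucleolar RNA genes took 0.426% of its counts, compared with 0.131% to 0.158% elsewhere. Gm23935 and CT010467.1, annotated as a miRNA and a ribosomal RNA and holding the most counts of all genes, together took 11.98% and 20.2% of the counts in the dTAG-13 libraries of DHX35-dTAG cells and 20.9% in GPATCH1-dTAG DMSO replicate 2, against 1.27% to 4.23% in the other 5. All 8 pluripotency markers were expressed, from 229 CPM for Sox2 up to 1694 CPM for Tfcp2l1, whereas the fibroblast markers Postn (0 counts throughout), Col1a2 and Col3a1 stayed at or below 0.144 CPM. Of that list, 2 genes passed the filter, Col1a1 and Thy1, and their summed level was 5.76 CPM in DHX35-dTAG DMSO replicate 1 and 2.48 to 3.63 CPM in the other libraries. The neural markers Pax6, Sox1 and Nes summed to 14.0 to 19.4 CPM, and the tested endoderm markers Gata4, Gata6 and Dab2 to 3.33 to 4.45 CPM in DHX35-dTAG cells and 5.05 to 6.41 CPM in GPATCH1-dTAG cells. Of the targets, Dhx35 measured 72.3 and 80.4 CPM in DMSO and 84.8 and 79.5 CPM in dTAG-13 in its own line, and Gpatch1 measured 7.31 and 6.90 CPM in DMSO and 7.06 and 7.20 CPM in dTAG-13. In the line tagged at the other gene, Dhx35 lay between 58.1 and 64.9 CPM and Gpatch1 between 23.2 and 25.6 CPM, so the Gpatch1 values of GPATCH1-dTAG cells lay below those of DHX35-dTAG cells in DMSO as well. The degron acts on protein, so these mRNA levels do not check the depletion.

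Levels are given as CPM, the count scaled to library size, after TMM scaling, which aligns the bulk of the genes between libraries. Gas5, known for accumulating in growth-arrested cells, was the most abundant host by counts. In DHX35-dTAG cells it measured 171 and 118 CPM in DMSO and 108 and 131 CPM in dTAG-13. In GPATCH1-dTAG cells it measured 126 and 135 CPM in DMSO and 128 and 132 CPM in dTAG-13. Apart from the first DMSO library of DHX35-dTAG cells, every library lay between 108 and 135 CPM, and the treatments overlapped in both lines. The mean was 145 ± 37 CPM in DMSO and 120 ± 16 CPM in dTAG-13 in DHX35-dTAG cells, and 130 ± 6.4 and 130 ± 2.9 CPM in GPATCH1-dTAG cells (SD, n = 2).

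Snhg1, a host of box C/D snoRNAs throughout, measured 87.2 and 96.3 CPM in DMSO and 83.5 and 91.1 CPM in dTAG-13 in DHX35-dTAG cells. In GPATCH1-dTAG cells the values were 93.9 and 96.6 CPM in DMSO and 89.5 and 103 CPM in dTAG-13. The highest library was 1.23 times the lowest, and the treatments overlapped in both lines.

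Snhg5, the host of both Snord50 copies, measured 99.3 and 73.0 CPM in DMSO and 72.8 and 78.6 CPM in dTAG-13 in DHX35-dTAG cells. In GPATCH1-dTAG cells it measured 90.0 and 96.1 CPM in DMSO and 91.0 and 92.2 CPM in dTAG-13. As for Gas5, the first DMSO library of DHX35-dTAG cells was the highest of all, and the second DMSO library of that line lay next to the dTAG-13 libraries.

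Snhg4, a host of an H/ACA snoRNA, measured 98.6 and 95.8 CPM in DMSO and 87.3 and 93.2 CPM in dTAG-13 in DHX35-dTAG cells. In GPATCH1-dTAG cells it measured 113 and 106 CPM in DMSO and 99.7 and 105 CPM in dTAG-13. It was the 1 host whose dTAG-13 libraries lay below both DMSO libraries in each line, as did those of 2.82% of all genes.

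Snhg15, the host of Snora9, measured 76.9 and 47.1 CPM in DMSO and 46.5 and 48.1 CPM in dTAG-13 in DHX35-dTAG cells. In GPATCH1-dTAG cells it measured 43.2 and 44.7 CPM in DMSO and 48.2 and 48.0 CPM in dTAG-13. One library set the whole range of this gene, since the other 7 lay between 43.2 and 48.2 CPM. Snhg8, the host of Snora24 and the least abundant of the 9 by counts, measured 19.95 and 13.5 CPM in DMSO and 11.4 and 13.7 CPM in dTAG-13 in DHX35-dTAG cells. In GPATCH1-dTAG cells it measured 16.5 and 13.9 CPM in DMSO and 13.3 and 13.8 CPM in dTAG-13. The top of its range again came from the first DMSO library of DHX35-dTAG cells.

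Snhg3 is the host of both Snora73 copies. In DHX35-dTAG cells it measured 18.6 and 24.8 CPM in DMSO and 24.8 and 21.7 CPM in dTAG-13, and its lowest library was the one in which Gas5, Snhg5, Snhg8 and Snhg15 were highest. In GPATCH1-dTAG cells it measured 27.4 and 27.9 CPM in DMSO and 29.9 and 33.2 CPM in dTAG-13. Of its exonic bases, 13.7% are shared with Rcc1 on the same strand and 71.5% with Gm17300 on the opposite strand, so part of its count may belong to a neighbour. Gm17300, named after its counts were seen, had 553 counts in DHX35-dTAG DMSO replicate 1 and 37 to 102 in the other libraries. The strand setting of the counting is not given in the sources used here, and the part of either neighbour in the Snhg3 values was not tested.

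Snhg6 and Snhg12 varied least in absolute terms. Snhg6, the host of Snord87, measured 29.8 and 30.5 CPM in DMSO and 29.5 and 33.3 CPM in dTAG-13 in DHX35-dTAG cells, and 31.3 and 34.8 CPM in DMSO and 31.9 and 31.2 CPM in dTAG-13 in GPATCH1-dTAG cells. Snhg12, which carries snoRNAs of both classes, measured 25.1 and 21.2 CPM in DMSO and 19.3 and 21.9 CPM in dTAG-13 in DHX35-dTAG cells, and 24.3 and 24.1 CPM in DMSO and 24.3 and 26.1 CPM in dTAG-13 in GPATCH1-dTAG cells. The treatments overlapped in both lines for both genes. On the opposite strand, Mcmdc2 shares 11.1% of the exonic bases of Snhg6 and had at most 35 counts.

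Per kilobase of annotated exon, the mean level over the 8 libraries was highest for Snhg5 at 50.1 ± 6.0 CPM per kb and lowest for Snhg12 at 9.70 ± 0.94 CPM per kb (SD, n = 8). In between came Snhg15 at 37.0 ± 8.0, Gas5 at 34.9 ± 4.9, Snhg1 at 31.2 ± 2.1, Snhg6 at 27.5 ± 1.6, Snhg3 at 26.4 ± 4.7 and Snhg8 at 17.0 ± 3.1 CPM per kb. Snhg15, Gas5 and Snhg1 are not separated by more than their spreads, nor are Snhg6 and Snhg3. The same holds for Snhg5 and Snhg15, for Snhg6 and Snhg15, and for Snhg3 beside Snhg15, Gas5 or Snhg1. The order depends on the models: without the retained intron models Gas5 would be at 154 ± 21 CPM per kb, Snhg1 at 107 ± 7.1 and Snhg5 at 82.9 ± 9.9. For Snhg12 the annotated exons cover the whole gene span of 2402 bases in models of other types, so its value divides by introns as well. Its lowest place therefore rests on those models.

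On depletion of DHX35, no host passed the test. By the quasi-likelihood test of edgeR, with p-values adjusted over 16371 genes by the Benjamini-Hochberg method, 0 of the 9 hosts had an adjusted p under 0.05 (lowest 0.715), as for 0% of all genes tested, and 0 of 9 had an unadjusted p under 0.05, compared with 5.39% of all genes. DESeq2 also called 0 of the 9, with 1, Snhg15, at an unadjusted p under 0.05, as for 1.46% of the 32642 genes it tested, which include genes of low count. The fitted log2 fold change was below 0 for 7 of the 9, with a median of -0.16 beside -0.01 over all genes. It was lowest for Snhg8 at -0.41 (standard error 0.20, 95% interval -0.86 to 0.03, adjusted p = 0.715 in edgeR's test) and Snhg15 at -0.39 (standard error 0.19, 95% interval -0.81 to 0.04, adjusted p = 0.715). Gas5 was at -0.27 (standard error 0.16), Snhg5 at -0.18 (0.13), Snhg12 at -0.16 (0.12), Snhg4 at -0.11 (0.08) and Snhg1 at -0.07 (0.10). Snhg3 at 0.10 (0.15) and Snhg6 at 0.06 (0.11) were above 0. These bulk samples do not tell fewer cells with a transcript from less of it per cell.

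The values depended on single libraries. Without DHX35-dTAG DMSO replicate 1, 5 of the 9 hosts were below 0 and the median was -0.04. Snhg8 was then at -0.11, Gas5 at 0.02 and Snhg15 at 0.01, whereas Snhg1 was at -0.14, Snhg3 at -0.09 and Snhg4 at -0.08. In that fit 0 of 9 had an adjusted p under 0.05 in edgeR's test, beside 0.0117% of all genes, and 0 of 9 an unadjusted one, beside 4.60%. With that library as the only DMSO library of the line, Gas5 (-0.51), Snhg5 (-0.38), Snhg8 (-0.66) and Snhg15 (-0.69) had an adjusted p under 0.05, as had 4949 genes in all (28.8%), 6 of the 9 had an unadjusted p under 0.05, as had 38.9% of all genes, and the median of the hosts was -0.27. DHX35-dTAG dTAG-13 replicate 1 was the lowest library for 7 of the 9 hosts, and without it 8 were below 0 with a median of -0.08. The groups of DHX35-dTAG cells did not overlap for 1 host, Snhg4, which was lower in dTAG-13, as were 14.1% of all genes, and for no host in the other direction, against 14.6% of all genes. What sets DHX35-dTAG DMSO replicate 1 apart was not tested.

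On depletion of GPATCH1, the values of the hosts were centred on 0. By the same edgeR test 0 of 9 had an adjusted p under 0.05 (each adjusted p was 1), as for 0% of all genes, and 0 of 9 had an unadjusted p under 0.05, compared with 2.97% of all genes. DESeq2 called 0 of the 9, and 0 at an unadjusted p under 0.05, beside 0.377% of its genes. The median log2 fold change was 0.00 beside 0.00 over all genes, with 5 hosts above 0 and 4 below. The hosts ranged from Snhg8 at -0.17 (standard error 0.19, 95% interval -0.61 to 0.26) to Snhg3 at 0.19 (standard error 0.15, 95% interval -0.14 to 0.52). Snhg15 was at 0.13 (0.19), Snhg12 at 0.06 (0.12), Snhg1 at 0.01 (0.10), Gas5 at 0.00 (0.16), Snhg5 at -0.02 (0.13), Snhg6 at -0.07 (0.11) and Snhg4 at -0.10 (0.08). With each library left out in turn, Snhg8 ran from -0.29 to -0.04 and Snhg3 from 0.12 to 0.27. Snhg4 and Snhg8 were lower in both dTAG-13 libraries than in either DMSO library, as were 20.3% of all genes, and Snhg3 and Snhg15 were higher in both, as were 21.5%. The outer bounds of the 95% intervals over the 9 hosts were -0.86 and 0.44 for DHX35 and -0.61 and 0.56 for GPATCH1. Single hosts had narrower intervals, such as -0.30 to 0.08 for Snhg4 on DHX35 depletion.

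The difference between the responses, GPATCH1 minus DHX35, passed the threshold for 0 of 9 hosts in edgeR's test and for 0% of all genes, and 0 hosts had an unadjusted p under 0.05, beside 3.91% of all genes. DESeq2 gave 0 at either threshold, with 0.778% of its genes at the unadjusted one. It was above 0 for 8 of the 9, with a median of 0.16, and highest for Snhg15 at 0.52 (standard error 0.27, 95% interval -0.09 to 1.12, adjusted p = 0.862), which was 0.12 without DHX35-dTAG DMSO replicate 1. Without that library 5 of the 9 hosts were below 0 and the median of the difference was -0.01, and without DHX35-dTAG DMSO replicate 2 the median was 0.33. Across both lines, dTAG-13 against DMSO gave 0 of 9 hosts past the threshold in edgeR's test (lowest adjusted p 0.963) and 0% of all genes, 0 hosts at an unadjusted p under 0.05, beside 3.59% of all genes, and 0 at either threshold in DESeq2, beside 0.821% of its genes at the unadjusted one. Of the hosts, 8 were below 0 with a median of -0.10. Snhg8 had the lowest value, -0.29 (standard error 0.14, 95% interval -0.59 to 0.02). Without DHX35-dTAG DMSO replicate 1, the median across both lines was 0.01, 4 of the 9 were below 0 and Snhg8 was at -0.15.

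**Figure D1:**
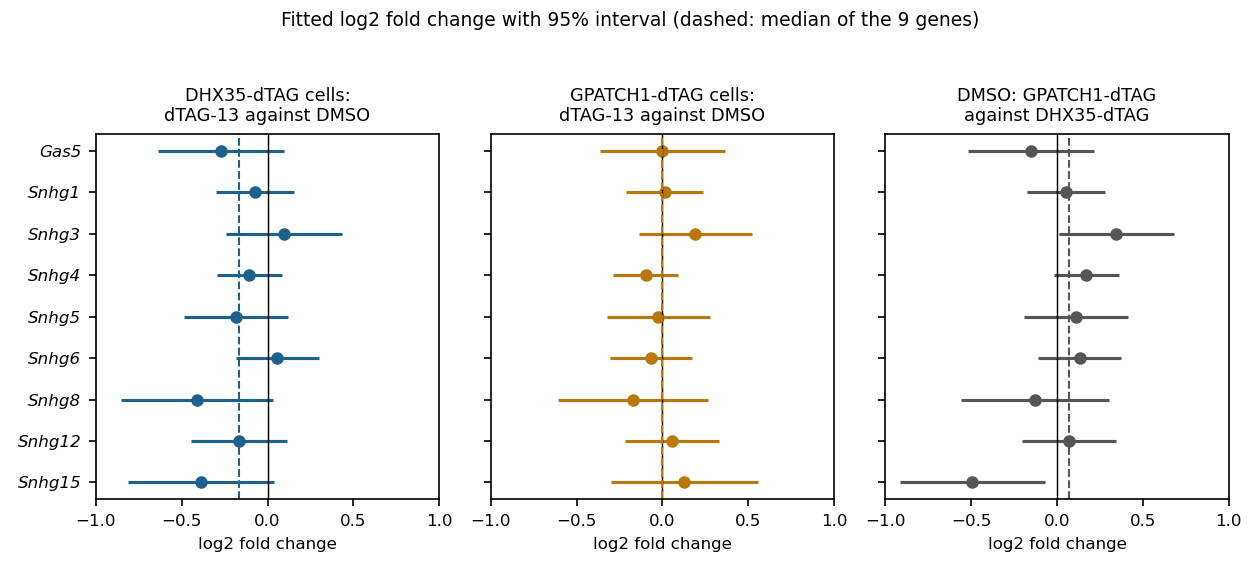
Fitted log2 fold change (horizontal axes) of each host with its 95% interval, for dTAG-13 against DMSO in each line and for GPATCH1-dTAG against DHX35-dTAG cells in DMSO, with the median of the 9 dashed. Every interval crosses 0 for both depletions, and those of Snhg3 and Snhg15 do not in the comparison of the lines, where neither passed the adjusted threshold.

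The values of the hosts depended on how the libraries were scaled. On CPM of the library total, with no TMM scaling, 8 of the 9 hosts, all but Snhg3, were lower in both dTAG-13 libraries of DHX35-dTAG cells than in either DMSO library, as were 48.0% of all genes. Gas5 then measured 181 and 130 CPM in DMSO and 106 and 112 CPM in dTAG-13, and Snhg4 measured 105 and 105 CPM in DMSO and 85.0 and 79.9 CPM in dTAG-13. In GPATCH1-dTAG cells 5 of the 9, Gas5, Snhg3, Snhg5, Snhg12 and Snhg15, were higher in both dTAG-13 libraries on that scale, as were 36.4% of all genes.

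The values of all genes shifted too. From the log2 ratio of group means, the median of all genes went from -0.01 under TMM to -0.25 on library totals for DHX35, and from 0.00 to 0.17 for GPATCH1. The median of the hosts went from -0.17 to -0.41 and from 0.00 to 0.17. Relative to all genes it was -0.16 under both scalings for DHX35 and 0.00 under both for GPATCH1. Either scaling applies the same factor to all genes of a library, so this difference could hardly move and tests nothing. The libraries that dropped on library totals were those in which Gm23935 and CT010467.1 took 11.98% to 20.9% of the counts, whose part in the shift was not tested, and the share was higher in dTAG-13 in DHX35-dTAG cells but not in GPATCH1-dTAG cells. The summed level of the 9 hosts was 490 CPM on library totals and 579 CPM after TMM in GPATCH1-dTAG DMSO replicate 2, where that share was 20.9%. Fitted without TMM, edgeR's test called 0 of the 9 hosts in either depletion, with 4 hosts at an unadjusted p under 0.05 for DHX35, as for 15.6% of all genes, and 0 for GPATCH1, beside 2.13% of all genes.

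**Figure D2:**
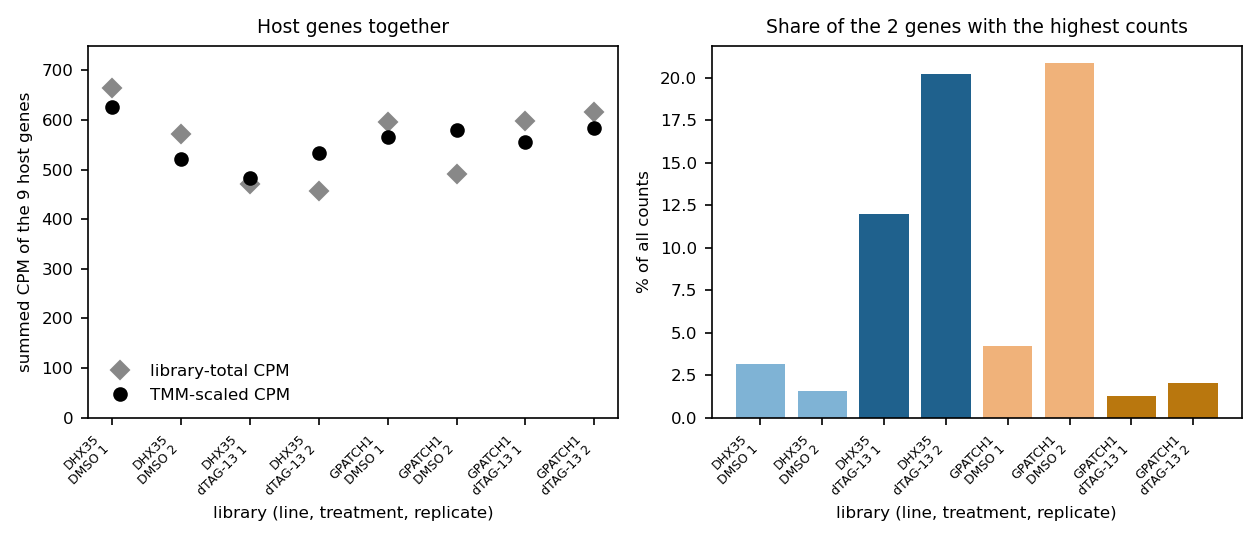
Left, summed CPM of the 9 hosts in each library on library totals (grey diamonds) and after TMM scaling (black circles). Right, share of all counts taken by Gm23935 and CT010467.1; in the 3 libraries with shares of 11.98%, 20.2% and 20.9% the diamond lies below the circle.

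Between the lines in DMSO, GPATCH1-dTAG against DHX35-dTAG, 0 of 9 hosts had an adjusted p under 0.05 in edgeR's test, compared with 0.0916% of all genes, and DESeq2 called 0. Snhg3 and Snhg15 had an unadjusted p under 0.05 in edgeR's test, 2 of 9 beside 12.9% of all genes, and 1 host, Snhg15, did in DESeq2, beside 3.96% of its genes. Snhg3 was higher in GPATCH1-dTAG cells by 0.35 on the log2 scale (standard error 0.15, 95% interval 0.01 to 0.68, adjusted p = 0.377), and by 0.15 without DHX35-dTAG DMSO replicate 1. For Snhg15 the difference was -0.49 (standard error 0.19, 95% interval -0.92 to -0.07, adjusted p = 0.355), and it was -0.10 without DHX35-dTAG DMSO replicate 1. The DMSO libraries did not overlap for Snhg15, lower in GPATCH1-dTAG cells as were 21.3% of all genes, or for Snhg3, Snhg4 and Snhg6, higher as were 21.8%. This comparison and the depletion of DHX35 share the DMSO libraries of DHX35-dTAG cells.

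Over all 8 libraries, Snhg3 and Snhg4 were the hosts in which the lines did not overlap. Snhg3 measured 22.5 ± 3.0 CPM in DHX35-dTAG cells and 29.6 ± 2.7 CPM in GPATCH1-dTAG cells (SD, n = 4). Its log2 difference was 0.39 (standard error 0.10, adjusted p = 0.12 in edgeR's test of the line with treatment in the model). Snhg4 measured 93.7 ± 4.8 and 106 ± 5.3 CPM (SD, n = 4). Its difference was 0.17 (standard error 0.06, adjusted p = 0.197 in edgeR's test). Of all genes, 5.63% were higher without overlap in GPATCH1-dTAG cells and 6.00% lower, and no host was lower in this way. On library totals the lines overlapped for both genes. The lines also did not overlap in Dhx35 or Gpatch1 mRNA or in the summed levels of 4 lists, whose part in these values was not tested. In GPATCH1-dTAG cells the sums were higher for the endoderm markers and the protein-coding targets of nonsense-mediated decay (739 to 775 CPM, against 675 to 713). The factors of that pathway also had a higher sum (3329 to 3430 CPM, against 3087 to 3315), and the pluripotency markers a lower one (5183 to 5372 CPM, against 5411 to 5827). A sum is weighted to the abundant genes of a list. Gene by gene in DMSO, 4 pluripotency markers were higher in GPATCH1-dTAG cells and 4 lower, and 14 of the factors were higher and 7 lower. The targets split into 8 higher and 2 lower, and the endoderm markers into 3 and 0. A difference between clones, between tags and between cultures cannot be told apart here.

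The snoRNAs inside the hosts were mostly not counted. Of 28 snoRNA symbols within the 8 hosts, 27 are in the tables and 24 had 0 counts in all libraries, and each of those 24 lies within an annotated exon of its host. The 3 with counts were Snora73b and Snord87, which lie outside the exons of their hosts, and Snora73a, which overlaps an exon of Snhg3 in part. Over all snoRNA genes of the tables, 23 of 161 within an exon of another gene on their strand had counts (14.3%), compared with 314 of 1292 outside such exons (24.3%). These counts of 0 give no level for Snord50a or Snord50b, and the snoRNAs of 6 of the 8 hosts could not be followed.

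Snora73b, the more counted copy, had 3413 and 1194 counts in DMSO and 1084 and 1037 in dTAG-13 in DHX35-dTAG cells, and 1295 and 1086 in DMSO and 1529 and 929 in dTAG-13 in GPATCH1-dTAG cells. Snord87 had 25 and 11 counts in DMSO and 11 and 13 in dTAG-13 in DHX35-dTAG cells, and 12, 14, 18 and 9 in the same order in GPATCH1-dTAG cells. The first DMSO library of DHX35-dTAG cells was the highest for both, and small structured RNAs took 0.426% of its counts. Snora73a had 14 counts in that library and 24 to 59 in the others. Its host Snhg3 was lowest in that same library, at 18.6 CPM.

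Other genes of the same biology were read from lists, whose unadjusted calls stand beside 5.39% of all genes for DHX35 and 2.97% for GPATCH1. The 11 tested non-coding hosts outside the 9 (of 13 listed), among them the imprinted gene Rian and Epb41l4aos, had 0 adjusted calls and a median log2 fold change of -0.37 on DHX35 depletion, with 10 below 0 and 1 at an unadjusted p under 0.05. They ranged from Epb41l4aos at -0.72 (standard error 0.33) to Rian at 0.10 (0.15). Without DHX35-dTAG DMSO replicate 1, in which 8 of these 11 genes were highest, the median was -0.04 and 6 of 11 were below 0. On GPATCH1 depletion the median was -0.09, with 0 adjusted and 0 unadjusted calls, from Snhg9 at -0.66 (0.50) to Snhg16 at 0.34 (0.21).

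The 29 protein-coding hosts on the list, mostly genes of the translation machinery, had medians of 0.00 and 0.05 for DHX35 and GPATCH1, with 0 adjusted calls for either and 1 and 0 unadjusted calls. On DHX35 depletion Rps20, a small ribosomal subunit protein, was at -0.30 (0.21) and Hspa8, a constitutive chaperone, at 0.42 (0.20). The 16 genes for proteins that bind or assemble snoRNAs had medians of -0.02 and 0.05, with 0 adjusted calls and 1 unadjusted call each. Nop10, a core protein of H/ACA particles, was at 0.67 (0.39) on DHX35 depletion and -0.18 (0.39) on GPATCH1 depletion. With DHX35-dTAG DMSO replicate 1 left out, the medians on DHX35 depletion were 0.06 for the protein-coding hosts, with 22 of 29 above 0 where 14 had been, and 0.05 for the snoRNA-binding proteins, with 13 of 16 above 0 where 7 had been. On GPATCH1 depletion, in the fit of all libraries, 25 of the 29 and 12 of the 16 were above 0, where the median over all genes was 0.00.

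The 21 factors of nonsense-mediated decay and the exon junction complex had medians of 0.01 and 0.02 and 0 calls, adjusted or unadjusted, for either protein. Rbm8a, a core protein of the exon junction complex, was at -0.30 (0.17) on DHX35 depletion, and Dhx34, a helicase of the pathway, at 0.18 (0.12) on GPATCH1 depletion. The 10 protein-coding targets of the pathway had medians of -0.04 and 0.07, with 0 adjusted calls and 1 unadjusted call each. The latter were Chac1, a stress-induced glutathione-degrading enzyme, at 0.55 (standard error 0.19, adjusted p = 0.715) on DHX35 depletion and Gadd45a, a growth arrest gene, at 0.47 (standard error 0.12, adjusted p = 1) on GPATCH1 depletion in edgeR's test. Without DHX35-dTAG DMSO replicate 1, and in DESeq2, 0 of the 10 had an unadjusted p under 0.05 on DHX35 depletion. DESeq2 gave 0 adjusted calls in each of these lists for either depletion.

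The 5 genes most like the hosts across the 8 libraries were taken from 8968 other genes with a mean of at least 10 CPM, by Pearson's r with the mean centred log2 level of the hosts. They were Asns (r = 0.976), Fgfr1op2 (0.972), Sf3b1 (0.967), Jade1 (0.965) and Atp5pb (0.955), where the median over all candidates was -0.01. Without DHX35-dTAG DMSO replicate 1 these r were between 0.961 and 0.975 over 7 libraries. The libraries share groups and scaling, and the genes were picked for their r, so these values are a description. Asns encodes asparagine synthetase and Sf3b1 a core subunit of the splicing factor that recognises the branch site.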

How the data were processed

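RNA of the 8 libraries was depleted of ribosomal RNA and made into stranded libraries with human DLD-1 RNA as a spike-in. The submitters' processing notes name FastQC 0.11.9, Trim Galore 0.6.6, STAR 2.7.5c with mm10 and hg19, and DESeq2 1.26.0. The authors deposited raw counts per gene, without normalization. The program, annotation and strand setting of the counting are not given in the sources used here, and spike-in reads were not used here. Groups were taken from the sample titles.

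From the counts, edgeR 4.0.16 (R 4.3.3) was run over all 8 libraries with filterByExpr, TMM scaling, 1 term per group, glmQLFTest and Benjamini-Hochberg adjustment at 0.05 over 16371 genes. The common dispersion corresponds to a coefficient of variation between replicates of 11.2%. The F statistic gave the standard errors, as the size of the log2 fold change over its square root. No pair of replicates was a duplicate (chi-square per gene between 3.57 and 79.1). The fit was tested on simulated data. Alternatives were DESeq2 1.42.0, its size factors, other filters, only the 4 libraries compared, a replicate block, removal of Gm23935 and CT010467.1, and each library left out in turn. Fits without TMM and with a term for the line over all 8 libraries were added after seeing the data.

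The 9 genes and all lists were chosen with earlier results of these data known. Named by rule were the 9 hosts, both targets, the snoRNAs inside the hosts, examples from the extremes of each list (some are not reported here) and the 5 genes most like the hosts.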

Additional observations from a re-analysis of the deposited data

How the results depend on the processing

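No setting outside the removal of a library called a host on either depletion. Snhg15 between the lines passed the threshold with no expression filter (-0.47) and with no TMM (-0.67). On library totals with no TMM the medians of the hosts were -0.41 (DHX35), 0.17 (GPATCH1) and 0.57 (difference). Sign changes there were Snhg3 (-0.14) and Snhg6 (-0.19) on DHX35 depletion, Snhg4 (0.0636), Snhg5 (0.15) and Snhg6 (0.10) on GPATCH1 depletion, and Snhg1 (-0.13), Snhg4 (-0.00846), Snhg5 (-0.0727), Snhg6 (-0.0587) and Snhg12 (-0.11) between the lines. Gas5 on GPATCH1 depletion, at 0.00, was -0.000371 with a minimum of 10 counts per library, -0.00259 with only the 4 libraries compared and -0.00538 without Gm23935 and CT010467.1. With 1 library left out, a lone sample is assumed to vary like the other groups.

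Counts of genes over the whole table, in the order DHX35, GPATCH1, difference, both lines, lines in DMSO, were 345, 21, 140, 80 and 986 with no filter, and 319, 10, 179, 13 and 703 with no TMM. DESeq2 gave 1, 0, 8, 4 and 46. Only the 4 libraries compared gave 1 and 127 for the depletions and 2 between the lines. At least 10 counts in every library gave 4 between the lines, and the line term over all 8 libraries gave 129. The cause of these moves was not tested.

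The replicate block gave 4 genes for the difference, 0 hosts called in any comparison, and 17 genes between the lines. Replicate numbers were not shown to pair the libraries, since the differences between replicates 1 and 2 correlated by 0.037 to 0.265 between groups.

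Leaving out each library in turn gave 0 to 4949 genes (DHX35), 0 to 51 (GPATCH1), 0 to 3592 (difference), 0 to 8 (both lines) and 4 to 5887 (lines). The upper ends for DHX35, the difference and the lines came without DHX35-dTAG DMSO replicate 2, and the 51 genes for GPATCH1 without either DMSO replicate of DHX35-dTAG cells. Hosts that changed sign had these ranges. On DHX35 depletion they were Gas5 -0.506 to 0.0197, Snhg1 -0.14 to 0.0108, Snhg3 -0.0926 to 0.335, Snhg5 -0.382 to 0.0549, Snhg6 -0.0279 to 0.141 and Snhg15 -0.691 to 0.00706. On GPATCH1 depletion they were Gas5 -0.0493 to 0.0459, Snhg1 -0.0894 to 0.112, Snhg5 -0.0692 to 0.0195 and Snhg6 -0.144 to 0.00402. Between the lines they were Gas5 -0.39 to 0.14, Snhg1 -0.0152 to 0.137, Snhg5 -0.086 to 0.35, Snhg8 -0.37 to 0.19 and Snhg12 -0.0376 to 0.194. Without DHX35-dTAG DMSO replicate 2, Gas5, Snhg5 and Snhg15 were also called for the difference, and Gas5, Snhg3, Snhg8 and Snhg15 between the lines.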
